A study of Mus musculus with 8 samples.

Results

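The cells described here are those of the embryonic mouse kidney that carried transcripts of Spon1, Fgf8, Lgr5, Epha4 and Sim2, genes that mark the distal and medial parts of the young nephron. A cell was selected when these 5 genes together had at least 5 unique molecular identifiers (UMIs, each counting 1 captured transcript). It was left out when the cycle genes Top2a, Cenpf, Ube2c and Nusap1 summed to 20 UMIs or more, when the loop of Henle genes Umod and Slc12a1 summed to 8 or more, or when the progenitor genes Six2 and Eya1 summed to 3 or more. Of 6495 cells assigned to a mouse, 388 passed. These measured levels chose the cells, so the levels of the 5 genes, called rule genes here, are given as a description and without a test.

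The kidneys of 4 male embryos were dissociated and sequenced in a single pool, as 1 library of gene expression and 1 of multiplexing tags that share their barcodes by design. The labels give embryonic day 17.5, whereas the study's methods give a later day. Mice 1 and 2 were Trim28delta/delta: both copies of the floxed allele Trim28tm1.1Ipc had been recombined by the transgene Tg(Six2-EGFP/cre), whose Six2 promoter drives Cre in nephron progenitors, so that these cells and their descendants lack the floxed segment while stroma, vessels, blood cells and the ureteric bud are not derived from them. Mice 3 and 4 were Trim28f/f and carried the floxed allele, and whether they carried the transgene is not stated in the sources used here. By the study's account, the floxed allele is recombined in every nephron progenitor of offspring that also carry the transgene. The labels name no treatment, and each genotype is represented by 2 animals of the same pool.

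The mammalian nephron forms from progenitors that aggregate, become an epithelial vesicle and then an S-shaped tubule, whose parts take on proximal, medial and distal identity. Fgf8 is a growth factor needed for the survival of the newly formed epithelium, Lgr5 is a receptor for R-spondins that marks part of the early distal segment, Epha4 is a receptor for ephrins, Sim2 is a transcription factor and Spon1 is a secreted matrix protein. Trim28 encodes a co-repressor that KRAB zinc-finger proteins bring to DNA, where it silences retroelements and protects the silenced state of imprinted genes.

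The mouse of each cell was read from a multiplexing oligonucleotide, a short tag anchored in the cell membrane. The 4 tags on which every comparison between mice rests are shown in full, written in capitals because the whole tag is read.
Mouse 1, Trim28delta/delta: CGCGATATGGTCGGA
Mouse 2, Trim28delta/delta: CGGATTCCACATCAT
Mouse 3, Trim28f/f: AAGATGAGGTCTGTG
Mouse 4, Trim28f/f: AAGCTCGTTGGAAGA

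The selected cells numbered 57 and 89 in mice 1 and 2 and 159 and 83 in mice 3 and 4. Their median depth was 15807, 16332, 16137 and 17529 UMIs in mice 1 to 4, and their summed UMIs ranged from 1116606 in mouse 1 to 2935358 in mouse 3. The median share of UMIs from mitochondrial genes was higher in the Trim28delta/delta mice, at 3.59% and 3.47% against 2.67% and 2.93%. Another 3603 cells carried a clear tag that the deposited tag list does not name, and these were left out. Scrublet, which scores how much a barcode resembles a mixture of cells, marked 6.19% of the selected cells and 5.88% of all cells with a listed tag. Transcripts of other cell types were present in the sums of the selected cells, and they differed between the mice. The summed level of 6 endothelial genes was 371 CPM (UMIs scaled to a sum of 1000000) in mouse 1, 287 CPM in mouse 2, and 88.9 and 91.0 CPM in the Trim28f/f mice. For 6 immune genes it was 17.0 and 25.4 CPM against 152 and 202 CPM, for 9 stromal genes 273 and 240 CPM against 203 and 133 CPM, and for 5 erythroid genes 4373 and 8853 CPM against 955 and 1589 CPM. None of these genes was at 0 over the selected cells. At least 10 UMIs of the endothelial, stromal and immune genes were found in 7, 11, 16 and 6 cells of mice 1 to 4, and the counts of changed genes over the whole table are therefore given with and without these 40 cells.

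Among the rule genes, Epha4 supplied the most UMIs. It made up 48.8% of all rule-gene UMIs, Fgf8 17.3%, Spon1 13.8%, Sim2 11.8% and Lgr5 8.42%. A selected cell held between 5 and 52 rule-gene UMIs, with a median of 10. In 60 cells a single rule gene was found, in 116 a pair of them, in 116 there were 3, in 74 there were 4 and in 22 all 5. Epha4 was that single gene in 56 cells, namely 12, 19, 20 and 5 in mice 1 to 4. These are 21.1% and 21.3% of the selected cells of mice 1 and 2 and 12.6% and 6.02% of those of mice 3 and 4. A larger share of the Trim28delta/delta cells thus entered through Epha4 alone. The minimum of 5 UMIs left 76 cells at the threshold and 95 just below it with 4 UMIs.

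Epha4 stood at 417 and 324 CPM in mice 1 and 2 and at 268 and 279 CPM in mice 3 and 4, against 41.8 CPM in the other cells. Fgf8 stood at 51.0 and 57.3 CPM against 135 and 158 CPM, with 14.6 CPM in the other cells. Spon1 stood at 60.0 and 67.6 CPM against 105 and 93.4 CPM, with 10.8 CPM in the other cells. Epha4 was therefore higher, and Fgf8 and Spon1 were lower, in both Trim28delta/delta mice than in both Trim28f/f mice, as was Lgr5 with 35.8 and 33.5 CPM against 71.9 and 52.5 CPM. Sim2 overlapped between the genotypes, at 88.7, 71.9, 61.0 and 90.4 CPM in mice 1 to 4. RNA free in the suspension, taken from barcodes with 10 to 100 UMIs, held 32.3 CPM of Epha4, 23.6 CPM of Fgf8, 10.5 CPM of Spon1, 8.90 CPM of Sim2 and 6.54 CPM of Lgr5, in each case below the level of the selected cells of every mouse.

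The label of an early distal and medial nephron cell was compared with genes that the rule did not use. Lhx1, a homeobox gene of the renal vesicle, reached 399 CPM over the selected cells, 48.0 CPM in loop of Henle cells (453 cells with at least 8 UMIs of Umod and Slc12a1) and 75.6 CPM in nephron progenitors (423 cells with at least 3 UMIs of Six2 and Eya1). Sfrp2, a secreted Wnt modulator, was found at 307, 25.4 and 80.5 CPM in the same order. Irx1, a homeobox gene of the medial and distal tubule, was found at 199, 245 and 7.87 CPM. Pou3f3, a regulator of the distal and loop segments, was found at 156, 191 and 13.8 CPM. Levels of both genes in the selected cells were thus close to those of the loop of Henle and far from those of progenitors. The 10 renal vesicle markers summed to 2326 CPM in the selected cells and 1210 CPM in the other cells. Lists of later segments went the other way. The 8 loop of Henle markers, of which the rule kept Umod and Slc12a1 low, summed to 605 and 910 CPM, with 7 of them lower. The 10 distal convoluted and connecting tubule markers summed to 476 and 635 CPM, with 9 of them lower. These values describe the chosen cells, and no test was made of them.

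Clustering of the 388 cells gave 8 sub-groups, which are numbered and described by their leading genes, and the heat map of levels shows how far they differ. Sub-group 2 (68 cells) was led by Pappa2, the transcription factor Tfap2b at 451 CPM, the claudins Cldn19 and Cldn10, the globins Hbb-bt and Hbb-bs and the rule gene Spon1 at 228 CPM, and it held Irx1 at 371 CPM. Its Hbb-bs came mostly from mouse 2, with 511, 12668, 571 and 430 CPM in mice 1 to 4. Sub-group 3 (67 cells) was led by replication-dependent histones and other S phase genes such as Pclaf, Rrm2 and Mcm10, with Lhx1 at 718 CPM. Sub-group 6 (47 cells) had the highest Fgf8, at 384 CPM against 73.0 CPM, together with Tfap2a, Bmp2 (126 against 29.2 CPM), Bach2 and the Wnt inhibitor Dkk1. Its Lhx1 was at 773 CPM, its Irx1 at 11.7 CPM, and not a single UMI of Sim2 was counted in it. Sub-group 7 (39 cells) was led by S100g, a calcium-binding protein of the distal nephron, at 3485 CPM against 165 CPM, by Aqp3 and Aqp2, water channels of the collecting duct, and by the mitophagy receptor Bnip3, which responds to low oxygen, at 621 CPM against 110 CPM.

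**Figure D1:**
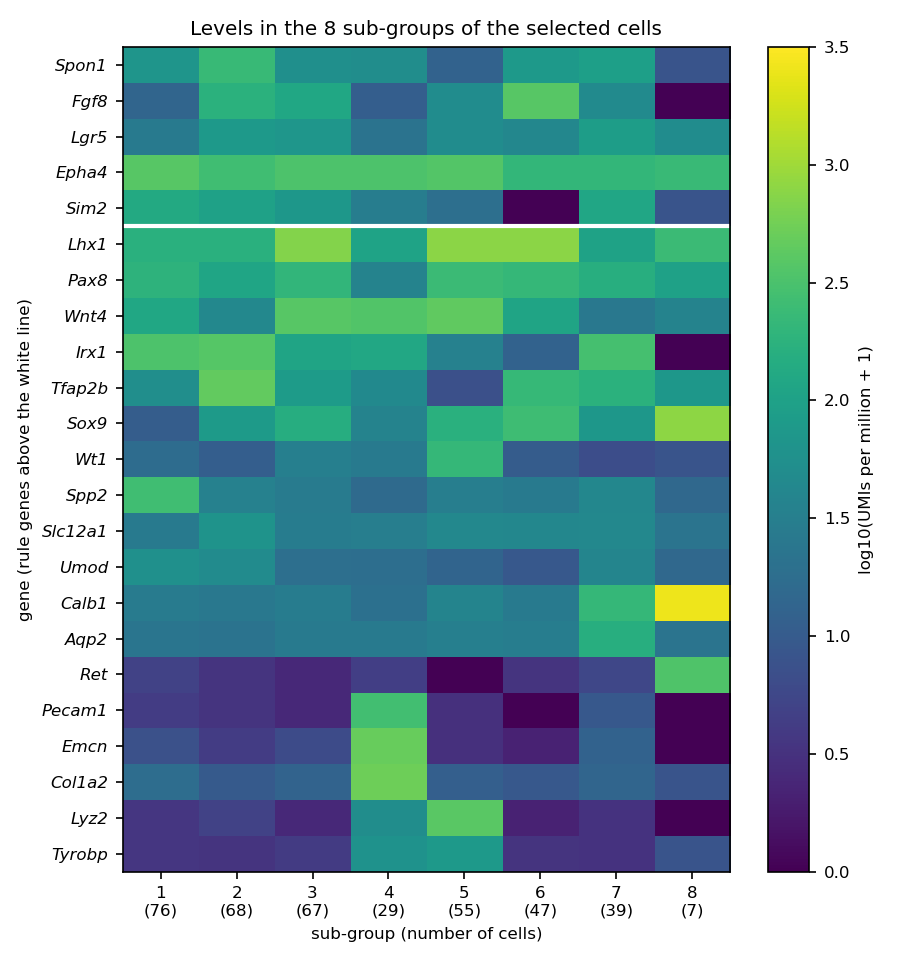
Levels of the rule genes (above the white line) and of other marker genes (below it) in the 8 sub-groups of the selected cells, as log10 of CPM plus 1, with the number of cells of each sub-group in brackets. Fgf8 is highest in sub-group 6 (384 CPM), Spp2 in sub-group 1 (267 CPM), Wt1 in sub-group 5 (213 CPM), Emcn in sub-group 4 (486 CPM) and Calb1 and Ret in sub-group 8 (2594 and 342 CPM).

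Several sub-groups went against the label. Sub-group 7 was mixed, with Aqp3 and Aqp2 in 28.2% and 46.2% of its cells and S100g in 92.3%. It also held Irx1 at 294 CPM and the highest Lgr5 of the 8 sub-groups, at 86.4 CPM. Sub-group 1 (76 cells) was led by proximal tubule genes, among them Spp2 at 267 CPM against 29.4 CPM in the other selected cells, and Pck1 and Fbp1, both enzymes of gluconeogenesis. Its rule-gene UMIs came from Epha4 at 385 CPM and Sim2 at 132 CPM rather than from Fgf8 at 12.9 CPM. Sub-group 5 (55 cells) was led by Wt1 at 213 CPM against 16.6 CPM, a podocyte transcription factor, by the Notch ligand Dll1 at 222 CPM against 25.5 CPM, and it also held Lyz2, a lysozyme of myeloid cells, at 402 CPM. Only 4 of its cells held at least 10 UMIs of endothelial, stromal or immune genes. Much of the Lyz2 of the Trim28f/f mice lay in a single cell, as given below. Sub-group 4 (29 cells) was led by endothelial and stromal genes such as Emcn, Pecam1 and Col3a1. All 29 of its cells were among the 40 with at least 10 UMIs of other cell types, Scrublet marked 9 of them, and 14 carried Epha4 and no other rule gene. Sub-group 8 (7 cells) was led by Calb1, the receptor tyrosine kinase Ret and other genes of the ureteric bud. The cells are therefore called selected cells below, and no other cell type name is given to them.

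By mouse, sub-group 6 held 1 and 0 cells of mice 1 and 2 and 30 and 16 cells of mice 3 and 4. These are 1.75% and 0% against 18.9% and 19.3% of the selected cells, and the count of 0 among 89 cells allows a share of up to 3.37%. Sub-group 1 held 25 and 32 cells against 4 and 15, or 43.9% and 36.0% against 2.52% and 18.1%. Sub-group 5 held 7.02% and 8.99% against 21.4% and 10.8%. Of the 39 cells of sub-group 7, 35 came from mouse 3, and the other mice gave 1, 2 and 1. The 2 genotypes did not overlap in sub-groups 1, 4, 5 and 6, with differences of 29.6, 3.89, -8.11 and -18.2 percentage points. These shares are a description without a test, since the sub-groups were drawn by genes that themselves differed between the genotypes, such as Gm11100 and Sult1d1 in sub-group 1, Emcn and Pecam1 in sub-group 4, Dll1 in sub-group 5 and Tfap2a and Bach2 in sub-group 6, and since the rule gene Fgf8 was a leading gene of sub-group 6.

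**Figure D2:**
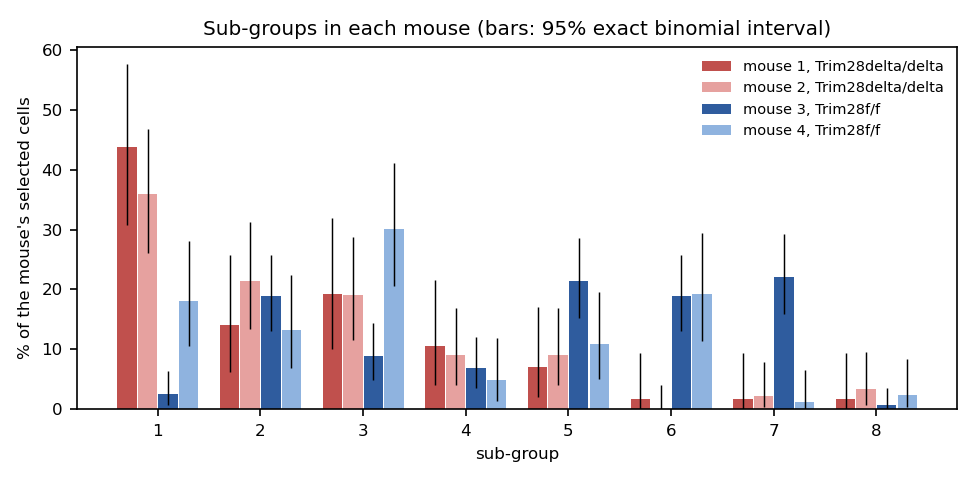
Share of each mouse's selected cells (%) in sub-groups 1 to 8, with 95% exact binomial intervals for counting error as bars. Sub-group 1 takes 43.9% and 36.0% of the Trim28delta/delta cells, sub-group 6 takes 18.9% and 19.3% of the Trim28f/f cells, and sub-group 7 takes more of the cells of mouse 3 than the share of at most 2.25% that it takes in any other mouse.

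The clustering was repeated without the 943 genes that had an unadjusted p below 0.05 between the genotypes, an alternative chosen after seeing the data, which gave 9 clusters. Of the 47 cells of sub-group 6, 30 fell into a single cluster of 34 cells, which held 1 and 1 cells of mice 1 and 2 and 18 and 14 cells of mice 3 and 4. It made up 1.75% and 1.12% against 11.3% and 16.9% of the selected cells. The mean share was lower in Trim28delta/delta mice, by -12.7 percentage points, as a description without a test because the cluster was chosen for its match to sub-group 6. Another cluster, of 98 cells, took in 40 of the 76 cells of sub-group 1 and 45 of the 68 of sub-group 2. It took 35.1% and 38.2% of the selected cells of mice 1 and 2 and 17.6% and 19.3% of those of mice 3 and 4. Here the mean share was higher in Trim28delta/delta mice, by 18.2 percentage points. For sub-group 5 the matching cluster of 50 cells overlapped between genotypes, at 17.5% and 7.87% against 15.1% and 10.8%.

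The share of all cells that were selected did not separate the genotypes. It was 4.88% (95% exact binomial interval 3.72 to 6.28) and 6.90% (5.58 to 8.43) in mice 1 and 2 and 6.39% (5.46 to 7.42) and 5.36% (4.29 to 6.60) in mice 3 and 4. The genotype means, 5.89% ± 1.43 (SD, n = 2) in Trim28delta/delta and 5.87% ± 0.724 (SD, n = 2) in Trim28f/f, were 0.0187 percentage points apart. No test is given, because the rule genes themselves set which cells are counted. The intervals cover counting error only. Before the 3 exclusions, cells with at least 5 rule-gene UMIs made up 10.7% and 12.4% against 13.5% and 15.4% of the cells, which is a gap of -2.86 percentage points without overlap. Of these marker-positive cells, 43.2%, 39.4%, 42.1% and 50.4% in mice 1 to 4 were left out for cycle genes. Loop of Henle genes left out 12.8%, 11.9%, 12.8% and 13.9%. Progenitor genes left out 2.40%, 1.25% and 2.39% in mice 1 to 3 and 15.1% in mouse 4, where 36 of 238 cells were concerned. The progenitor-side share thus set mouse 4 apart from the other mice rather than one genotype from the other.

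For gene expression, the UMIs of the selected cells were summed per mouse, and the sums of 2 Trim28delta/delta and 2 Trim28f/f mice were compared with edgeR's quasi-likelihood test over 10742 genes. Log2 changes are Trim28delta/delta over Trim28f/f, with their standard errors (SE) and Benjamini-Hochberg adjusted p-values from that test. A total of 55 genes had an adjusted p below 0.05, which is 0.512% of those tested. Of these, 35 were higher (0.326%) and 20 were lower (0.186%) in Trim28delta/delta cells. The rule gene Fgf8 is among the 20, and since the rule used it, its call is not read, which leaves 54 genes, 19 of them lower. An unadjusted p below 0.05 was found for 8.78% of all tested genes, 4.85% higher and 3.93% lower, and the counts for gene lists below are to be read against these shares. The levels of all 55 did not overlap between the genotypes, as was the case for 20.9% of all tested genes in the higher and 17.1% in the lower direction. Without the 40 cells that held transcripts of other cell types, an alternative chosen after seeing the data, 29 genes were called, and 24 of them were among the 55. Of the 35 higher and 20 lower genes, 11 and 4 had too few counts to be tested in that fit. The number depended on single mice: 46 genes were called without mouse 1, 90 without mouse 2, 370 without mouse 3 and 493 without mouse 4, in fits that assume a lone mouse to have the spread of the other genotype's pair. In sums of this kind, fewer cells of a kind and less RNA per cell cannot be told apart. Levels within sub-groups are given for the genes that matter most, as a description without a test. They cannot tell these apart either, because the sub-groups were drawn from the same cells by genes that themselves differed between the genotypes, such as Gm11100 and Dll1.

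Trim28 (chromosome 7, 12999114 to 13031035, GRCm38) stood at 42.1 and 30.8 CPM in the Trim28delta/delta mice 1 and 2 and at 129 and 138 CPM in the Trim28f/f mice 3 and 4. Its log2 change was -1.92 (SE 0.21, edgeR adjusted p = 0.0037). Because 3′ ends are counted and these remain on the recombined allele, the level does not by itself show that the segment was removed. In sub-group 3 Trim28 stood at 17.4 and 17.1 CPM, from 3 and 6 UMIs, against 181 and 189 CPM, from 52 and 96 UMIs. In sub-group 4, whose leading genes are endothelial and stromal, it stood at 70.5, 81.4, 75.1 and 108 CPM in mice 1 to 4, from 9 to 15 UMIs per mouse. The genotypes were thus apart in sub-group 3 and overlapped in sub-group 4. Over the list of TRIM28 and 12 heterochromatin partners, all tested, Trim28 was the 1 gene called, and the median log2 change was -0.14 against -0.015 over all genes. Without mouse 3 there were 1 higher and 3 lower calls, and the median ranged from -0.27 to -0.041 when single mice were left out. Cbx1, which encodes HP1 beta, had a log2 change of -0.23 (SE 0.15, edgeR adjusted p = 0.76), and Chd4, the ATPase of the NuRD complex, one of 0.055 (SE 0.14, edgeR adjusted p = 0.97).

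**Figure D3:**
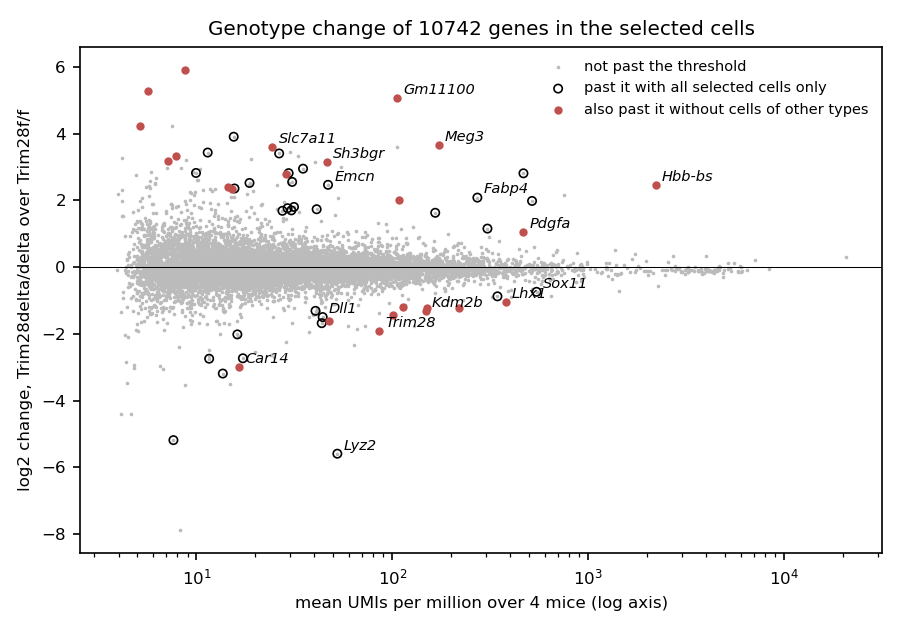
Log2 change (Trim28delta/delta over Trim28f/f) of the 10742 tested genes in the selected cells against their mean level over 4 mice in CPM (log axis). Circles mark the 55 genes past the threshold, and those filled in red were also past it without the 40 cells that held transcripts of other cell types; Gm11100, Meg3 and Hbb-bs are among the red ones, and Fabp4, Emcn and Lyz2 are not.

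Gm11100, a processed transcript on chromosome 14 (13918444 to 13949558, GRCm38), had the smallest p of all genes. It stood at 191 and 218 CPM in the Trim28delta/delta mice and at 5.45 and 6.72 CPM in the Trim28f/f mice, a log2 change of 5.06 (SE 0.23, edgeR adjusted p = 8.2e-06). It was called under all 14 alternatives. Within sub-group 1 it stood at 406 and 387 CPM against 0 and 11.7 CPM, and within sub-group 3 at 34.9 and 114 CPM against 3.49 and 3.95 CPM. In sub-group 1, mice 3 and 4 gave 0 and 4 of its UMIs from 4 and 15 cells. The sub-group 3 values rest on 6 and 40 UMIs in mice 1 and 2 and on 1 and 2 UMIs in mice 3 and 4. The transcript was thus higher in Trim28delta/delta mice in both sub-groups. It was itself a leading gene of sub-group 1, so its abundance there is not read as a result.

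Among 27 imprinted genes, of which 22 were tested, the 2 called were Meg3 and Rian, maternally expressed long non-coding RNAs of the Dlk1-Dio3 cluster. Meg3 (chromosome 12, 109541001 to 109571726) rose from 31.0 and 17.1 CPM in the Trim28f/f mice to 276 and 364 CPM in the Trim28delta/delta mice, a log2 change of 3.65 (SE 0.26, edgeR adjusted p = 3.2e-04), and it was called under all 14 alternatives. Rian (chromosome 12, 109603940 to 109661716) stood at 28.7 and 72.4 CPM against 8.52 and 5.50 CPM, a log2 change of 2.80 (SE 0.45, edgeR adjusted p = 0.029), and without mouse 2 it was 1.95 and no longer called. Meg3 was higher in both Trim28delta/delta mice in each of sub-groups 1, 2, 3 and 5, with 122 and 96.9 CPM against 14.0 and 21.7 CPM in sub-group 3. In sub-group 4 it overlapped, at 176, 190, 321 and 60.0 CPM. The other imprinted genes stayed under the threshold, and the median log2 change of the list was 0.11 (0.075 to 0.19 when single mice were left out). Without mouse 3, 6 were called higher and 1 lower, and without mouse 4, 3 were called higher. Kcnq1ot1, the antisense RNA of another imprinted domain, had a log2 change of -0.023 (SE 0.15, edgeR adjusted p = 0.99) and Gnas, which encodes a G protein subunit, one of 0.14 (SE 0.12, edgeR adjusted p = 0.85). Cdkn1c, a cell cycle inhibitor, had 0.90 (SE 0.34, edgeR adjusted p = 0.42).

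**Figure D4:**
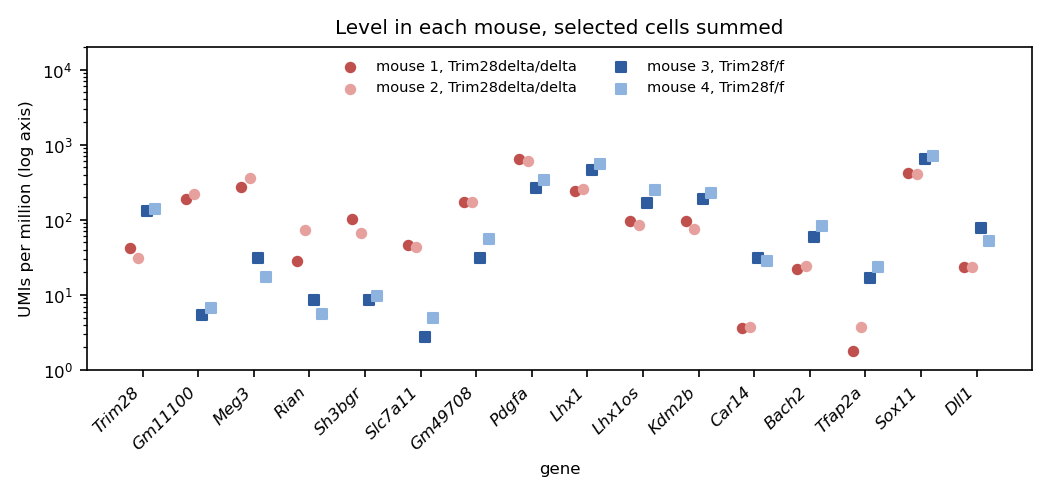
Level of 16 genes in each mouse, as CPM over the summed selected cells (log axis), with circles for the Trim28delta/delta mice and squares for the Trim28f/f mice. For every gene shown both mice of a genotype lie on the same side of both mice of the other; Gm11100 and Meg3 are the genes with the widest gaps above, and Tfap2a and Car14 those with the widest gaps below.

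Further genes were higher in Trim28delta/delta cells with and without the 40 cells. Sh3bgr, a small protein with an SH3-binding motif, stood at 101 and 66.0 CPM against 8.52 and 9.77 CPM, a log2 change of 3.16 (SE 0.30, edgeR adjusted p = 0.0021). Slc7a11, the cystine transporter, stood at 46.6 and 43.3 CPM against 2.73 and 4.89 CPM, a log2 change of 3.60 (SE 0.35, edgeR adjusted p = 0.0022). In sub-group 1 it stood at 92.3 and 73.3 CPM against 0 and 5.86 CPM, from 45, 44, 0 and 2 UMIs. In sub-group 3 it stood at 11.6 and 14.2 CPM against 3.49 and 5.92 CPM, from 1 to 5 UMIs per mouse. In sub-group 2 it overlapped at 6.82, 2.30, 8.04 and 5.24 CPM. Gm49708, a predicted gene on chromosome 16, stood at 170 and 175 CPM against 31.0 and 55.0 CPM, a log2 change of 2.02 (SE 0.24, edgeR adjusted p = 0.0084). Each of these 3 was called under 13 of 14 alternatives, all but the requirement of 90% of tag counts. Pdgfa, a platelet-derived growth factor, rose by 1.04 on the log2 scale (SE 0.15, edgeR adjusted p = 0.019), from 263 and 338 CPM to 648 and 608 CPM, and was not called without mouse 1. Its difference was found in sub-group 1, with 1157 and 1226 CPM against 121 and 510 CPM, whereas in sub-group 3 it overlapped at 337, 319, 185 and 337 CPM. The value of mouse 3 in sub-group 1 rests on 4 cells with 14 UMIs.

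Other genes of the higher group belonged to endothelium or blood. Of 6 endothelial markers, 3 were called higher, Emcn, Kdr and Pecam1, and the median log2 change of the list was 2.13. Emcn (55.5 and 103 CPM against 13.6 and 15.3 CPM) had 70.4% of its Trim28delta/delta UMIs in a single cell. Fabp4, a fatty acid carrier of capillary endothelium, had a log2 change of 2.08 (SE 0.16, edgeR adjusted p = 5.3e-04) with 51.4% of its Trim28delta/delta UMIs in a single cell, and without the 40 cells it was -0.56 (edgeR adjusted p = 0.64). Sparc, a matrix protein, went from 1.15 (SE 0.14, edgeR adjusted p = 0.0094) to 0.22 (edgeR adjusted p = 0.88) in the same way. Egfl7, the most abundant of the 6 markers, stood at 110, 70.3, 47.4 and 34.2 CPM in mice 1 to 4 (log2 change 1.08, SE 0.26, edgeR adjusted p = 0.14). Without the 40 cells only 1 of the 6 markers had enough counts to be tested, and it was not called. Of 4 erythroid genes tested 3 were called higher, against 0.326% of all genes, and 1 of 4 without the 40 cells, where Hbb-bt and Hba-a2 had an edgeR adjusted p of 0.086 and 0.20. Hbb-bs, a beta globin, stood at 2568 and 4917 CPM against 553 and 796 CPM, a log2 change of 2.45 (SE 0.27, edgeR adjusted p = 0.0037), which was 2.47 without the 40 cells (edgeR adjusted p = 0.036). Sub-group 2 of mouse 2 alone held 5500 of its UMIs, a level of 12668 CPM. Within each of sub-groups 1 to 5 Hbb-bs overlapped between the genotypes, with 511, 5319, 439 and 1339 CPM in sub-group 1. Of 4 immune genes tested, 3 were called lower, whereas without the 40 cells only 1 gene of the list could be tested (log2 change 0.50), and it was not called. Lyz2, at 4.48 and 0.541 CPM against 68.1 and 136 CPM, had 52.0% of its Trim28f/f UMIs in a single cell. The median log2 change was 2.30 for the erythroid and -2.96 for the immune list. Of 7 stromal genes tested none was called by edgeR, with 2 at an unadjusted p below 0.05. The part of blood, vessel and immune transcripts in the other differences was not tested beyond the fits without the 40 cells.

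Lhx1 fell. It encodes a LIM homeobox factor that the young nephron needs to form and to be patterned. It stood at 239 and 259 CPM in the Trim28delta/delta mice and at 463 and 550 CPM in the Trim28f/f mice, a log2 change of -1.05 (SE 0.14, edgeR adjusted p = 0.015), and at -1.01 (edgeR adjusted p = 0.030) without the 40 cells. The call was lost without mouse 1 (-0.99) and without mouse 2 (-1.10). It was also lost with the rule applied after thinning to 6800 UMIs (-1.16) and with at least 90% of tag counts (-1.50). The neighbouring transcript Lhx1os stood at 97.6 and 85.4 CPM against 167 and 251 CPM, a log2 change of -1.21 (SE 0.21, edgeR adjusted p = 0.039), and its call was also lost without mouse 1 (-1.31) and without mouse 2 (-1.11). In sub-group 3 Lhx1 was lower in both Trim28delta/delta mice, at 569 and 544 CPM against 970 and 746 CPM, and likewise in sub-group 5, at 347 and 616 CPM against 846 and 960 CPM. Sub-group 5 held only 4 and 8 cells of mice 1 and 2, with 28 and 96 Lhx1 UMIs. In sub-group 1 Lhx1 overlapped at 160, 175, 276 and 114 CPM. The sub-groups with high Lhx1, namely 3, 5 and 6, together held 28.1% and 28.1% of the selected cells of mice 1 and 2 and 49.1% and 60.2% of those of mice 3 and 4, and their part in the difference was not tested.

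Both genes start from the same stretch of chromosome 11 in opposite directions. Lhx1 covers 84518284 to 84525535 on the minus strand and Lhx1os 84525660 to 84535831 on the plus strand (GENCODE M21, GRCm38), which leaves 124 bases between their starts. That stretch is shown because 2 called genes meet in it, from chr11:84525536-84525659 of GRCm38.p6 on the minus strand (RefSeq promoter table), 5′ to 3′ towards Lhx1 and with the dinucleotide CG in capitals.
Between Lhx1os and Lhx1: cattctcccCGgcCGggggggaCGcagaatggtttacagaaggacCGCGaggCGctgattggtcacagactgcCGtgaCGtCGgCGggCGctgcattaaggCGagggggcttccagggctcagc
It holds 12 CG dinucleotides. The same window of the 32851 promoters in that table held a median of 3, and 18.2% of them held as many or more. The count describes the letters only.

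Of the 18 tubule patterning regulators, 17 were tested and Lhx1 was the 1 gene called, with a median log2 change of -0.16. At an unadjusted p below 0.05 were 2 higher and 6 lower genes (8.78% of all tested genes in either direction). In single fits, 3 higher and 3 lower genes were called without mouse 3, 1 higher and 6 lower without mouse 4, and 0 without mouse 2. Sox4 (0.15, SE 0.18, edgeR adjusted p = 0.90), Mecom (0.16, SE 0.14, edgeR adjusted p = 0.86) and Pax2 (-0.22, SE 0.16, edgeR adjusted p = 0.82) were among the most abundant members. Irx1 stood at 256 and 250 CPM in mice 1 and 2 and at 170 and 152 CPM in mice 3 and 4, with a log2 change of 0.62 (SE 0.15, edgeR adjusted p = 0.13). A pair of regulators named after their values were seen came close to the threshold from the other side. Sox9 stood at 86.0 and 77.9 CPM against 139 and 147 CPM (log2 change -0.83, SE 0.17, edgeR adjusted p = 0.070), and Irx3 at 31.3 and 18.4 CPM against 63.4 and 54.4 CPM (-1.33, SE 0.28, edgeR adjusted p = 0.081). Of the 10 renal vesicle markers, all tested, Lhx1 was again the 1 gene called, and the median was -0.30. Without mouse 3, 1 was called higher and 3 lower.

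Further genes were called lower. Kdm2b, a histone demethylase that binds CpG islands, stood at 96.7 and 74.6 CPM against 192 and 228 CPM, a log2 change of -1.33 (SE 0.18, edgeR adjusted p = 0.015), and was not called without mouse 2. In sub-group 3 it stood at 157 and 125 CPM against 272 and 306 CPM. In sub-group 2, by contrast, it overlapped at 123, 82.9, 104 and 115 CPM. Car14, a membrane carbonic anhydrase, stood at 3.58 and 3.78 CPM against 30.7 and 28.1 CPM, a log2 change of -3.00 (SE 0.37, edgeR adjusted p = 0.0084), and in sub-group 3 at 0 and 2.85 CPM against 41.9 and 51.3 CPM. These sub-group 3 values rest on 0 and 1 UMI in mice 1 and 2 and on 12 and 26 UMIs in mice 3 and 4. Bach2, a leucine zipper repressor, had a log2 change of -1.61 (SE 0.25, edgeR adjusted p = 0.029), and Sox11, an SRY-box factor of developing tissues, one of -0.74 (SE 0.12, edgeR adjusted p = 0.037). Neither was called without mouse 1 or without mouse 2, and Sox11 was not called without the 40 cells (edgeR adjusted p = 0.059). Tfap2a, an AP-2 factor, stood at 1.79 and 3.78 CPM against 17.0 and 23.8 CPM, a log2 change of -2.74 (SE 0.47, edgeR adjusted p = 0.039), and was not called without mouse 1 or without the 40 cells (edgeR adjusted p = 0.069). Tfap2a and Bach2 were leading genes of sub-group 6, which held 1 cell of the Trim28delta/delta mice. Sox11 overlapped between the genotypes in sub-groups 1, 2 and 3, with 918, 661, 806 and 935 CPM in sub-group 3. In sub-group 5 Sox11 stood at 272 and 443 CPM, from 4 and 8 cells, against 1376.5 and 1026 CPM. The S phase histones Hist1h2ae (-1.19, SE 0.17, edgeR adjusted p = 0.019) and Hist1h2ap (-1.21, SE 0.19, edgeR adjusted p = 0.029) were lower too, and the former was not called without mouse 1 or without mouse 2.

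The signalling pathways that pattern the nephron were read from lists of their ligands, receptors and targets. Of the Notch genes, 14 of 16 were tested and the ligand Dll1 was the 1 gene called. It stood at 23.3 and 23.8 CPM against 76.7 and 52.5 CPM, a log2 change of -1.50 (SE 0.26, edgeR adjusted p = 0.040), and was called under 7 of 14 alternatives, which did not include the fits without mouse 1, without mouse 2 or without the 40 cells (-1.48, edgeR adjusted p = 0.062). The ligand Jag1 overlapped between the genotypes at 154, 117, 194 and 148 CPM (edgeR adjusted p = 0.66), as did the target Hes1 at 167, 182, 288 and 150 CPM (edgeR adjusted p = 0.79), and the receptor Notch1 had a log2 change of 0.39 (SE 0.20, edgeR adjusted p = 0.65). The median of the list was -0.11. It was 0.21 without mouse 3, with 1 gene called higher and 1 lower, and -0.24 without mouse 4, with 1 called higher and 4 lower. Dll1 was highest in sub-group 5, of which it was a leading gene, at 49.5 and 116 CPM in mice 1 and 2 against 279 and 217 CPM in mice 3 and 4. The values of mice 1 and 2 rest on 4 and 8 cells with 4 and 18 UMIs. In sub-group 3 Dll1 overlapped between the genotypes, at 46.5, 51.3, 122 and 37.5 CPM in mice 1 to 4.

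Of 16 Fgf ligands, receptors and targets tested besides Fgf8, edgeR called none, while 7 had an unadjusted p below 0.05, all of them lower, as did 3.93% of all tested genes. Without mouse 3, 2 were called lower, and without mouse 4, 3 were. In 11 of the 16 both Trim28delta/delta mice lay below both Trim28f/f mice, against 17.1% of all tested genes, and the median log2 change was -0.50. Among the most abundant, the receptor Fgfr1 stood at 160 and 145 CPM against 209 and 176 CPM (log2 change -0.37, SE 0.16, edgeR adjusted p = 0.55), the receptor Fgfr2 overlapped at 45.7, 49.7, 58.6 and 47.0 CPM in mice 1 to 4 (-0.18, SE 0.22, edgeR adjusted p = 0.90), and the Fgf antagonist Il17rd stood at 50.2 and 44.3 CPM against 55.9 and 67.8 CPM (-0.41, SE 0.21, edgeR adjusted p = 0.65). Targets named after their values were seen were Dusp6, a MAP kinase phosphatase, at 19.7 and 27.6 CPM against 57.2 and 38.5 CPM (-1.03, SE 0.29, edgeR adjusted p = 0.22), and Etv5, an ETS factor, at 17.0 and 23.2 CPM against 34.1 and 43.4 CPM (-0.92, SE 0.28, edgeR adjusted p = 0.28). The rule selected cells by Fgf8 itself, which was at 51.0 and 57.3 CPM against 135 and 158 CPM in these cells. The genes just named also differed between sub-groups 6 and 1. Dusp6 stood at 72.3 and 18.1 CPM, Etv5 at 56.0 and 6.47 CPM and Il17rd at 83.9 and 33.0 CPM in that order. Fgfr1 stood at 191 and 102 CPM, and Fgfr2, the other way, at 39.6 and 46.6 CPM. The part of the sub-groups' shares in the shift of this list was not tested.

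Of 18 Wnt genes tested, edgeR called none, with 6 at an unadjusted p below 0.05 (8.78% of all tested genes) and a median log2 change of -0.11, or -0.18 to -0.031 when single mice were left out. Without mouse 3, 1 was called higher and 3 lower, and without mouse 4, 1 in each direction. The ligand Wnt4 stood at 172 and 177 CPM against 210 and 218 CPM (-0.32, SE 0.14, edgeR adjusted p = 0.58) and Sfrp2 at 250 and 264 CPM against 288 and 428 CPM (-0.50, SE 0.18, edgeR adjusted p = 0.42). Of 14 Bmp genes none was called by edgeR, with 7 at an unadjusted p below 0.05 and a median of -0.076. Without mouse 3 the median was 0.14, with 4 genes called higher and 2 lower, and without mouse 4 it was -0.31, with 2 called lower. The targets Id3, Id2 and Id1 had log2 changes of 0.47, 0.27 and 0.90 (edgeR adjusted p = 0.65, 0.88 and 0.34), and for all 3 mouse 4 was the lowest, with Id3 at 566, 566, 525 and 272 CPM in mice 1 to 4. Of 14 further Eph receptors and ephrins none was called by edgeR, with 2 at an unadjusted p below 0.05 and a median of 0.12, which was -0.016 without mouse 1. Without mouse 3, 2 of them were called higher. Epha7, the most abundant of them, stood at 146 and 147 CPM against 78.0 and 95.9 CPM (0.74, SE 0.17, edgeR adjusted p = 0.12).

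Of 17 epithelial junction genes, all tested, edgeR called none, with 4 at an unadjusted p below 0.05, but in 8 both Trim28delta/delta mice lay above both Trim28f/f mice, against 20.9% of all tested genes, and in none did they lie below. The median log2 change was 0.17, and between 0.0020 without mouse 4, with 2 genes called higher, and 0.40 without mouse 3, with 3 called higher. The adhesion protein Epcam stood at 995 and 1019 CPM against 746 and 744 CPM (0.41, SE 0.11, edgeR adjusted p = 0.22), the kidney cadherin Cdh16 at 267 and 262 CPM against 150 and 180 CPM (0.66, SE 0.15, edgeR adjusted p = 0.12), and the claudin Cldn7 at 251 and 285 CPM against 202 and 213 CPM (0.35, SE 0.15, edgeR adjusted p = 0.51).

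Markers of the nephron segments gave no further call by edgeR over all selected cells. With 1 gene each at an unadjusted p below 0.05, median log2 changes were -0.086 over 12 proximal tubule genes, -0.24 over the 3 loop of Henle genes that the rule did not use, 0.18 over 8 distal tubule genes and 0.20 over 4 progenitor genes. Over 6 podocyte genes and 10 ureteric bud and collecting duct genes the medians were 0.59 and 0.34, with 2 and 4 genes at an unadjusted p below 0.05, against 8.78% of all tested genes. The proximal tubule median ranged from -0.86 to 0.47 and the loop of Henle median from -0.25 to 0.76 when single mice were left out. In the same fits the medians ranged from 0.057 to 0.29 for the distal tubule, 0.11 to 0.88 for progenitors, 0.31 to 0.65 for podocytes and 0.066 to 0.56 for the ureteric bud and collecting duct. Without mouse 3, 2 proximal tubule genes were called lower, 2 loop of Henle and 3 distal tubule genes higher, and 1 ureteric bud and collecting duct gene in each direction. Without mouse 4, 1 loop of Henle gene was called in each direction, and 1 distal tubule gene and 3 ureteric bud and collecting duct genes were called higher. Calb1, a calcium-binding protein of the distal nephron and the collecting system, stood at 134 and 137 CPM against 69.8 and 75.7 CPM (0.88, SE 0.17, edgeR adjusted p = 0.060), and it was called without the 40 cells. Of 5 genes that the study names for proximal tubule cells, chosen by it on these samples, edgeR called none and none had an unadjusted p below 0.05, with a median of 0.031 that ranged from -0.85 to 0.60 when single mice were left out.

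Cell cycle and metabolic lists were also read. None of 14 S phase genes was called by edgeR or had an unadjusted p below 0.05 (median -0.28), but without mouse 3 the median was -0.66 with 5 genes called lower, and without mouse 4 it was 0.16. None of 14 G2/M genes was called by edgeR, with 3 at an unadjusted p below 0.05 (median -0.36), in cells chosen to be low in 4 cycle genes. Of 16 glycolysis genes edgeR called none, with 10 at an unadjusted p below 0.05, all lower (3.93% of all tested genes), and a median of -0.69. In 10 of the 16 both Trim28delta/delta mice lay below both Trim28f/f mice, against 17.1% of all tested genes. The hypoxia response list had a median of -1.29, with none of 9 tested genes called by edgeR and 6 at an unadjusted p below 0.05. The glycolysis and hypoxia medians rested on mouse 3, in which Ldha stood at 1147 CPM against 444, 482 and 490 CPM in mice 1, 2 and 4, and Bnip3 at 345 CPM against 59.1, 61.6 and 50.1 CPM. Without mouse 3 the medians were -0.10 and 0.087, with 1 and 0 genes called by edgeR. Without mouse 4, which leaves mouse 3 as the one Trim28f/f animal, they were -1.13 and -1.88, with 14 and 9 genes called lower. Fatty acid beta-oxidation (14 genes tested) and p53 target genes (9 tested) had medians of 0.021 and 0.31 and no call by edgeR, with 1 and 3 genes at an unadjusted p below 0.05, and the beta-oxidation median ranged from -0.098 to 0.17 when single mice were left out.

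Whether the genotype changes differed between the selected cells and the loop of Henle cells or nephron progenitors of the same mice was tested by the interaction of genotype and cell class, with each mouse as a block. The loop of Henle cells numbered 104, 79, 182 and 88 in mice 1 to 4. Progenitors were few in the Trim28delta/delta mice, with 17 and 33 cells in mice 1 and 2 against 114 and 259 in mice 3 and 4. Neither class was filtered by cycle genes, unlike the selected cells. Against the loop of Henle 54 of 12097 genes were called (0.446%), and against progenitors 55 of 11421 (0.482%). Without the 40 cells, chosen after seeing the data, these counts were 20 and 99. In those fits cells with transcripts of other types were left out of the selected cells only. The loop of Henle and progenitor sums were kept whole, so the classes were not treated alike. Of the 55 genes called in the selected cells, 13 had a change that differed from the loop of Henle and 4 one that differed from progenitors, in each case the larger one in the selected cells. That direction was nearly set by choosing genes called in these cells. Without the 40 cells, 4 of the 13 and all 4 of the 4 still differed. Trim28 had log2 changes of -1.92 in the selected cells, -2.00 in the loop of Henle and -1.85 in progenitors, and neither difference passed the threshold (edgeR adjusted p = 0.97 and 0.98).

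Meg3 changed by 3.65 in the selected cells and by 4.08 in the loop of Henle, a difference of -0.38 (SE 0.41, edgeR adjusted p = 0.83), but by 1.61 in progenitors, a difference of 2.19 (SE 0.29, edgeR adjusted p = 0.014). Gm11100 changed by 4.19 in the loop of Henle and by 3.09 in progenitors, and neither difference passed the threshold (edgeR adjusted p = 0.56 and 0.35). Lhx1 changed by 0.20 in progenitors, which differed from the selected cells by -1.25 (SE 0.19, edgeR adjusted p = 0.028), and by -0.30 in the loop of Henle, a difference of -0.82 that did not pass (SE 0.25, edgeR adjusted p = 0.28). Pdgfa changed by 0.067 in the loop of Henle, which differed by 0.98 (SE 0.13, edgeR adjusted p = 0.015). Sult1d1, a sulfotransferase, was lower in the selected cells (log2 change -1.68) and differed from both classes, by -1.84 from the loop of Henle (edgeR adjusted p = 0.017) and by -2.32 from progenitors (edgeR adjusted p = 0.038). Its level was 19.7 and 21.6 CPM against 53.5 and 79.4 CPM, and it was a leading gene of sub-group 1. Its call in the selected cells was lost without the 40 cells (-1.51, edgeR adjusted p = 0.18) and held under 7 of 14 alternatives. Without the 40 cells its difference was -1.62 from the loop of Henle (edgeR adjusted p = 0.063) and -2.15 from progenitors (edgeR adjusted p = 0.026).

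**Figure D5:**
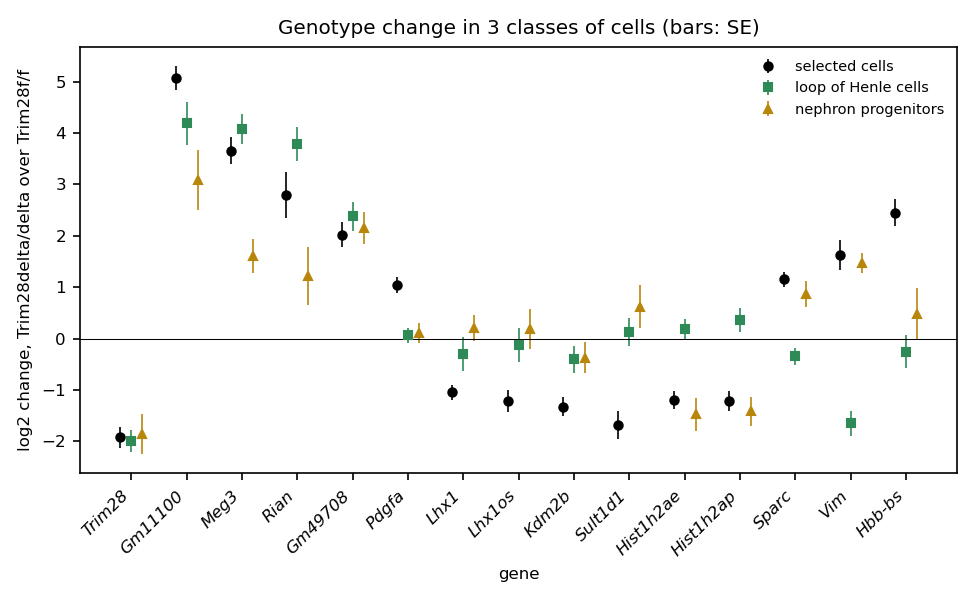
Log2 change (Trim28delta/delta over Trim28f/f) with its SE as bars for 15 genes in the selected cells (circles), loop of Henle cells (squares) and nephron progenitors (triangles). Trim28 is close to -2 in all 3 classes, Meg3 is lower in progenitors (1.61) than in the other classes (3.65 and 4.08), and Lhx1 is below 0 with a call in the selected cells alone (-1.05).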

How the data were processed

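A single pool of 10x 3′ libraries (gene expression and multiplexing tags) from 4 mice was used; the bulk RNA samples of the series were not analysed here. Alignment and counting were done by the authors in Cell Ranger (6.0.0 by the methods, 4 by the matrix header), and they deposited UMI counts per gene, tag and barcode, without normalization or selection of cells. The processing notes name GRCm38 and mm10 without saying which applies to this table. Downstream, the study used R 4.1.0 and Seurat 4.0 and compared cells by a Wilcoxon test, whereas here the mouse was the replicate.

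The table held 3921239 barcodes, 32285 genes and 12 tags. Barcodes with at least 6890 UMIs (21386), 200 or more genes and no more than 10% of UMIs from mitochondrial genes (19273) entered if the top tag had at least 50 counts and 80% of tag counts (10098) and the deposited tag list names its mouse and genotype (6495). UMIs of selected cells were summed per mouse, filtered with filterByExpr, normalized by TMM and tested with edgeR 4.0.16 (quasi-likelihood, 2 against 2, no covariates, threshold 0.05). SEs are the absolute log2 change divided by the square root of F. Levels are plain CPM. The counts were also tested with DESeq2 1.42.0. Sub-groups came from Leiden clustering in scanpy 1.11.5 (Python 3.11.15, R 4.3.3). The fit was tested on simulated data. Shares of cells follow from the rule or from the clustered genes and are described without a test, with exact binomial intervals (scipy 1.17.1). The depth of at least 6890 UMIs per cell leaves low genes with few UMIs per mouse.

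Alternatives were DESeq2 size factors, DESeq2, no filter beyond 1 count, leaving out each mouse, leaving out Scrublet doublets, 90% of tag counts, 10000 UMIs, a minimum of 8 rule-gene UMIs and thinning to 6800 UMIs, and, chosen after seeing the data, leaving out cells with at least 10 endothelial, stromal or immune UMIs and requiring a rule gene other than Epha4. Cells and gene lists were chosen with earlier results of these data known. Named genes were Trim28, the 10 genes with the smallest p in each direction among those called without overlap, called list genes, and the 2 to 4 most abundant members of each list; other genes past the threshold, and those said to be so, were named after their values were seen. Positions are from GENCODE M21 and were found for 10740 of 10742 tested genes. Values of some members of the fixed lists are not reported here.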

Additional observations from a re-analysis of the deposited data

Results flagged for a closer look

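The genotype changes given here are those of genes called in the selected cells whose difference from another class also passed the threshold of the interaction test (edgeR, with the mouse as a block), 13 of the 54 genes past it for the loop of Henle and 4 of the 55 for progenitors; the others were not called in the selected cells and are not listed. Against nephron progenitors, the log2 change in the selected cells was higher by 2.19 for Meg3 and by 3.41 for Hbb-bt, and lower, with differences of -1.25 for Lhx1 and -2.32 for Sult1d1. Against the loop of Henle cells it was higher by 0.98 for Pdgfa, 4.77 for Depp1, 1.49 for Sparc, 3.24 for Vim, 2.35 for Fabp4, 4.11 for Pecam1, 3.73 for Icam2, 3.68 for Sparcl1, 2.57 for Hbb-bs and 3.14 for Hbb-bt. For Hist1h2ae, Hist1h2ap and Sult1d1 it was lower, with differences of -1.38, -1.56 and -1.84. The loop of Henle cells, unlike the selected cells, were not filtered by cycle genes, and the part of this in the S phase histones was not tested.

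Several of these genes moved with transcripts of other cell types. Pecam1, Icam2 and Sparcl1 are endothelial, and Fabp4, Sparc and Vim are abundant in endothelium or stroma; the endothelial genes summed to 371 and 287 CPM in mice 1 and 2 and to 88.9 and 91.0 CPM in mice 3 and 4. Without the cells holding such transcripts Pecam1, Icam2, Sparcl1 and Depp1 had too few counts to be tested in the selected cells, the log2 change of Vim was 0.59 (edgeR adjusted p = 0.77), and those of Pdgfa and Lhx1 were 1.17 (edgeR adjusted p = 0.022) and -1.01 (edgeR adjusted p = 0.030). Without these cells, which were left out of the selected cells only, 4 of the 13 differences from the loop of Henle still passed. The difference was 1.10 for Pdgfa (edgeR adjusted p = 0.011), 2.17 for Vim (edgeR adjusted p = 0.069) and -0.33 for Fabp4 (edgeR adjusted p = 0.83). For Depp1, Sparc, Pecam1, Icam2 and Sparcl1 it was 1.45, 0.57, 2.51, 1.69 and 2.26 (edgeR adjusted p = 0.72, 0.44, 0.43, 0.64 and 0.48). The difference from progenitors was -1.20 for Lhx1 (edgeR adjusted p = 0.013) and 2.86 for Meg3 (edgeR adjusted p = 0.0015). Of the Trim28delta/delta UMIs of Hbb-bt and Hbb-bs, 37.9% and 22.5% lay in a single cell each, and without the cells just named Hbb-bt was no longer called in the selected cells (edgeR adjusted p = 0.086). Sult1d1 itself had a log2 change of -1.51 without them and was no longer called (edgeR adjusted p = 0.18).

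Cells outside the comparisons also passed the rule. Of 3603 cells with a clear tag that the deposited tag list does not name, 154 met every criterion for the selected cells, or 4.27%. Their mouse and genotype are not given by the labels.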

How the results depend on the processing

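No paired analysis was possible because the replicate numbers of the labels belong to bulk samples that were not used here, and the 4 mice carry no shared numbers. The 55 genes called between genotypes (35 higher and 20 lower) became 389 (226 and 163) with no filter beyond 1 count, 23 (14 and 9) with the rule applied after thinning, and 29 (19 and 10) without the 40 cells holding transcripts of other types. With at least 90% of tag counts, which kept 119 cells, edgeR called 2 genes, both higher, and 0 lower, with 544 genes at an unadjusted p below 0.05. Leaving out single mice gave 46 to 493 genes (31 to 225 higher, 13 to 268 lower), in fits that assume the lone mouse of a genotype to vary as the other pair does; for the difference from the loop of Henle, 54 became 41 to 271, and for the difference from progenitors, 55 became 32 to 357. With no filter these 2 counts were 352 and 275, without Scrublet doublets 148 and 21, and without the 40 cells 20 and 99. DESeq2 called 58 genes, 43 of them among the 55, DESeq2 size factors 55, at least 10000 UMIs 57, no Scrublet doublets 66, a minimum of 8 rule-gene UMIs 51 and a rule gene other than Epha4 78. The difference in the cycling share of marker-positive cells was -10.9 percentage points at a minimum of 8 UMIs against -4.97. That in the loop-side share, -1.01, was -2.40 at that minimum, 0.188 after thinning, -0.161 without the 40 cells and 0.0117 with a rule gene other than Epha4. The share of selected cells differed by -0.994 to 1.03 percentage points when single mice were left out. The log2 change of Fabp4 reversed to -0.56 without the 40 cells, and that of Sostdc1, -0.24 and not called, ranged from -0.80 to 0.80 when single mice were left out, and it was called both at 0.80, without mouse 3, and at -0.80, without mouse 4. Where no value is given beside a change, the cause was not tested.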

Other observations

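Within the 388 selected cells the rule genes did not mark the same cells. Of the cells with Sim2, 66.9% also held Spon1, whereas 31.8% also held Fgf8, and of those with Fgf8 29.4% held Sim2. Spearman's rho over the cells was 0.40 for Spon1 and Sim2 and -0.26 for Fgf8 and Sim2, as a description of cells that were chosen by the sum of these genes and that share libraries and depth. Epha4 was found in 98.1% of the cells with Sim2 and in 91.2% of those with Fgf8.

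Cells that met the marker minimum but were left out were read for other markers. Over the 310 cells left out for cycle genes alone, Lhx1 was at 636 CPM, Sfrp2 at 362 CPM and Dll1 at 74.6 CPM, against 399, 307 and 50.5 CPM in the selected cells. The 73 cells left out for loop of Henle genes alone held Lhx1 at 42.0 CPM and Irx1 at 297 CPM, and the 19 left out for progenitor genes alone held Lhx1 at 154 CPM and Wnt4 at 289 CPM.

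Globin levels differed between sums of single mice. Hbb-bs reached 13550 CPM in sub-group 5 of mouse 1 (4 cells), 12668 CPM in sub-group 2 of mouse 2, 7932 CPM in sub-group 3 of mouse 1 and 5319 CPM in sub-group 1 of mouse 2. In every other sum of a mouse and a sub-group it was at most 1339 CPM.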
